A study of Mus musculus with 6 samples.

Results

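The genes described are the granins and the enzymes that turn prohormones into hormones in the secretory granules of neuroendocrine cells, with the proteins that bind those enzymes. They were chosen by gene symbol and are 10 of the 16640 genes in the deposited table: the granins *Chga*, *Chgb*, *Scg2*, *Scg3* and *Vgf*, the convertase-binding proteins *Scg5* and *Pcsk1n*, and the enzymes *Pcsk1*, *Pcsk2* and *Cpe*. All 10 passed the filter on low counts, which left 12516 genes to test. Granins are acidic proteins that gather in the trans-Golgi network and help to pack hormones into dense granules. In the maturing granule of a β-cell, the prohormone convertases PC1/3 and PC2 cut proinsulin after pairs of basic residues, and carboxypeptidase E then trims these residues from the ends. The small proteins 7B2 and proSAAS bind PC2 and PC1/3, and control when each enzyme becomes active.

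RNA came from MIN6, a mouse insulinoma line that makes and secretes insulin. *Thada*-activated cells carried dCas9-VP64, selected with puromycin, and then a guide RNA to the *Thada* promoter with MS2-P65-HSF1, selected with G418, both brought in by lentivirus. Control cells received dCas9 and a non-targeting guide in the same kind of vectors. Each condition had 3 libraries, numbered 1 to 3 in the labels, and whether a stable line was 1 clone is not given in the sources used here. Libraries 1, 2 and 3 held 17272834, 17166511 and 17689611 counts in control cells and 17727004, 17385036 and 17224631 counts in *Thada*-activated cells. Nothing in the labels says that the libraries of a condition came from separate cultures, so p-values measure only the spread between these libraries, which may be technical. The paper says of its work on cells in general that experiments were repeated independently, without naming these libraries. Levels between libraries are given as CPM, which are counts scaled to library size, after TMM normalisation, and levels between genes as FPKM, which is per length. *Thada*, the activated gene, was at 28.0, 28.9 and 17.2 CPM in control libraries 1, 2 and 3, against 57.3, 56.2 and 49.1 CPM in *Thada*-activated libraries, with no overlap between conditions.

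The labelled cell type was checked against its markers. Of 12 β-cell markers, 11 passed the filter, and the most abundant, *Ins2*, averaged 225648 FPKM over the 6 libraries. *Slc2a2*, the glucose transporter of rodent β-cells, was near 0, at 0.0573 to 0.512 CPM, where 1 count is 0.0563 to 0.0585 CPM. Summed over the 12 markers, β-cell transcripts were at 108669, 97606 and 131377 CPM in control libraries 1, 2 and 3, against 102919, 100941 and 114515 CPM in *Thada*-activated libraries. *Ins2* was at 64400, 56401 and 103000 CPM in control and at 64264, 62872 and 81877 CPM in *Thada*-activated libraries. *Iapp* went the other way in the libraries numbered 3, with 37292, 34134 and 20640 CPM in control and 31651, 31375 and 24389 CPM in *Thada*-activated libraries.

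Replicate 3 of both conditions stood apart from replicates 1 and 2. The first principal component of log2 CPM held 80.1% of the variance and placed the libraries numbered 3 at 52.91 (control) and 47.27 (*Thada*-activated), and the other libraries between -25.75 and -24.16. Results on the conditions are therefore given with and without a block for the replicate number, and those of the members from edgeR also without both libraries numbered 3.

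The 10 genes together took 3.02%, 3.01% and 2.81% of the counts in control libraries 1, 2 and 3, and 3.0%, 2.99% and 2.96% in *Thada*-activated libraries. Their summed level was 14752 ± 313 FPKM (SD, n = 3) in control and 14875 ± 58.3 FPKM (SD, n = 3) in *Thada*-activated cells. On this per-length scale *Chga* came first, at 6989 ± 717 FPKM (SD over all 6 libraries), and was the gene with rank 5 of the whole table. *Scg2* (2026 ± 157 FPKM) and *Cpe* (1916 ± 277 FPKM) followed with ranges that overlapped each other but not those of *Chga* or the next genes. *Scg5* (931 ± 420 FPKM), *Scg3* (883 ± 169 FPKM) and *Chgb* (880 ± 79.0 FPKM) did not differ in level beyond their spread over libraries. *Pcsk2* (502 ± 72.6 FPKM) and *Pcsk1n* (425 ± 197 FPKM) also overlapped. *Vgf* (151 ± 49.2 FPKM) and *Pcsk1* (111 ± 26.4 FPKM) were the lowest, with overlapping ranges, although *Vgf* was above *Pcsk1* in 6 of 6 libraries. The least abundant member had rank 614 among all genes.

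Between conditions, no member differed beyond the spread between libraries in the design without a block. The edgeR quasi-likelihood test called 0 of the 10 members and 0 of 12516 genes (0.00%), where called means a fold change over 1.5 and p under 0.05 after Benjamini-Hochberg adjustment. At an unadjusted p under 0.05 there were 101 genes (0.807%) and 0 members. DESeq2 called 5 genes and limma on log2 FPKM called 0, with 0 members in either. The conditions did not overlap in 676 genes (5.40%) and in 0 members. All 3 pairs of libraries with the same number moved the same way in 4126 genes (33.0%) and in 4 members, *Chga*, *Scg2*, *Scg3* and *Cpe*. The median log2 fold change between the conditions was -0.04 over the 5 granins, 0.08 over the 2 binding proteins and -0.04 over the 3 enzymes, beside -0.004 over all tested genes.

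**Figure D1:**
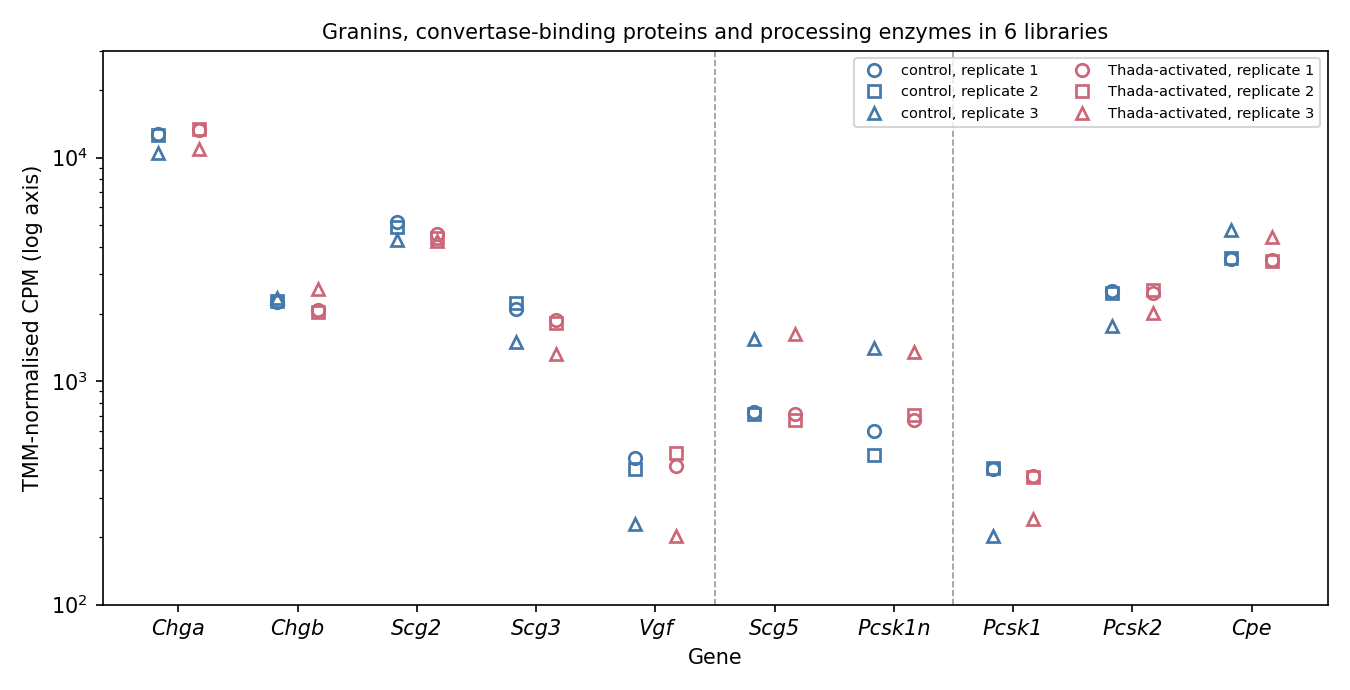
TMM-normalised CPM on a log axis of the 10 genes in each of the 6 libraries, with control cells in blue, *Thada*-activated cells in red, and circles, squares and triangles for replicates 1, 2 and 3. Dashed lines part granins, convertase-binding proteins and enzymes, the conditions overlap in all 10 genes, and the triangles lie far above the other symbols in *Scg5* (1538 and 1629 CPM) and below them in *Vgf* (229 and 202 CPM).

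Among the granins, *Chga* (chr12:102554969-102565028, GRCm38, plus strand) encodes chromogranin A, a driver of granule formation. It was at 12763, 12626 and 10503 CPM in control libraries 1, 2 and 3, against 13321, 13404 and 10943 CPM in *Thada*-activated libraries. Each *Thada*-activated library was above the control library of its number, yet both libraries numbered 3 lay below all others, and the log2 fold change was 0.07 (SE 0.18). *Chgb* (chr2:132781278-132795079, plus strand), which encodes chromogranin B, was at 2270, 2293 and 2343 CPM in control and at 2078, 2038 and 2580 CPM in *Thada*-activated libraries. The *Thada*-activated libraries lay on both sides of the control libraries, which were within a narrow range, and the log2 fold change was -0.04 (SE 0.16).

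*Scg2* (chr1:79434669-79440120, minus strand) encodes secretogranin II, the precursor of secretoneurin. It was at 5126, 4876 and 4262 CPM in control and at 4555, 4362 and 4230 CPM in *Thada*-activated libraries, a log2 fold change of -0.12 (SE 0.15). The control library numbered 3 lay within the range of the *Thada*-activated libraries. *Scg3* (chr9:75643189-75684056, minus strand) encodes secretogranin III, which links chromogranin A to the cholesterol-rich granule membrane. It was at 2106, 2230 and 1496 CPM in control and at 1876, 1827 and 1327 CPM in *Thada*-activated libraries. The control library numbered 3 was below *Thada*-activated libraries 1 and 2, so the conditions overlapped, and the log2 fold change was -0.21 (SE 0.23). *Vgf* (chr5:137026392-137033351, plus strand) encodes a granin-like precursor of neuropeptides. Its levels were 452, 406 and 229 CPM in control and 415, 477 and 202 CPM in *Thada*-activated libraries, and the log2 fold change was 0.01 (SE 0.39). Both libraries numbered 3 lay below all the others, and the conditions overlapped.

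Of the convertase-binding proteins, *Scg5* (chr2:113776362-113829121, minus strand) encodes 7B2, the chaperone that PC2 needs to mature. It was at 729, 715 and 1538 CPM in control and at 712, 668 and 1629 CPM in *Thada*-activated libraries. *Thada*-activated libraries 1 and 2 were slightly below their control partners and library 3 was above, and the log2 fold change was 0.01 (SE 0.48). *Pcsk1n* (chrX:7919822-7924410, plus strand) encodes proSAAS, an inhibitor of PC1/3. It was at 600, 469 and 1403 CPM in control and at 672, 708 and 1345 CPM in *Thada*-activated libraries. *Thada*-activated libraries 1 and 2 were above their control partners and library 3 was not, and the log2 fold change was 0.14 (SE 0.50). *Pcsk1n* overlaps the coding gene *Eras* at its end in GENCODE M21, and the use of strand in counting is not given in the sources used here, but *Eras* held 0 to 2 counts in any library. No other member overlaps a coding gene in that annotation. By the intervals in the deposited table, *Chgb* also overlaps *Shld1* (69 to 108 counts in a library), *Scg2* overlaps *Rcor3* (416 to 742 counts) and *Cpe* overlaps *Pik3r2* (1405 to 1745 counts), but GENCODE shows none of these 3 overlaps, so the table intervals are in doubt there.

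Of the enzymes, *Pcsk1* (chr13:75089826-75134861, plus strand) encodes PC1/3. It was at 404, 408 and 202 CPM in control and at 376, 371 and 242 CPM in *Thada*-activated libraries. *Thada*-activated libraries 1 and 2 were below their control partners and library 3 was above, which left a log2 fold change of -0.04 (SE 0.32). *Pcsk2* (chr2:143546156-143816285, plus strand) encodes PC2. It was at 2541, 2476 and 1761 CPM in control and at 2477, 2551 and 2018 CPM in *Thada*-activated libraries, with a log2 fold change of 0.06 (SE 0.20) and overlapping conditions. *Cpe* (chr8:64592542-64693054, minus strand) encodes carboxypeptidase E, which removes the basic residues that the convertases leave. It was at 3530, 3546 and 4730 CPM in control and at 3481, 3460 and 4434 CPM in *Thada*-activated libraries. Each *Thada*-activated library was slightly below the control library of its number, with a log2 fold change of -0.05 (SE 0.20). The adjusted p of each of the 10 members was 1 in this edgeR fit.

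With the replicate block, in which libraries are compared within a number, the standard errors of the members were 0.06 to 0.10. The edgeR test then called 19 of 12516 genes (0.152%), among them *Thada* (log2 fold change 1.15, SE 0.10, adjusted p = 0.000409, higher in 3 of 3 pairs), and again 0 members. At an unadjusted p under 0.05 there were 1302 genes (10.4%) and 2 of the 10 members. *Scg3* had a log2 fold change of -0.21 (SE 0.06, unadjusted p = 0.00495, adjusted p = 0.265, edgeR) and was lower in 3 of 3 pairs. *Pcsk1n* had a log2 fold change of 0.23 (SE 0.10, unadjusted p = 0.0395, adjusted p = 0.451, edgeR) and was higher in 2 of 3 pairs. DESeq2 with the block called 20 genes and 0 members. At an unadjusted p under 0.05 this DESeq2 fit had 534 genes and 1 member, *Scg3* (DESeq2 unadjusted p = 0.00208), while *Pcsk1n* was at a DESeq2 unadjusted p = 0.17 (log2 fold change 0.23, SE 0.17).

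Without both libraries numbered 3, the blocked edgeR fit on the remaining 4 libraries called 70 of 12480 genes (0.561%) and 0 members, since no member passed the fold change of 1.5. An adjusted p under 0.05 at any fold, a setting added after seeing the data, was reached by 366 genes (2.93%) and by *Scg3* and *Pcsk1n*. In this fit *Scg3* had a log2 fold change of -0.23 (SE 0.05, edgeR adjusted p = 0.00314) and was lower in both pairs. *Pcsk1n* had one of 0.38 (SE 0.08, edgeR adjusted p = 0.0252) and was higher in both pairs. Its differences within pairs 1 and 2 were 0.16 and 0.59 on log2 CPM, while control libraries 1 and 2 were themselves 0.36 apart. An unadjusted p under 0.05 was reached by 1744 genes (14.0%) and 5 members, the others being *Chgb* (-0.15, SE 0.05, edgeR adjusted p = 0.112), *Scg2* (-0.16, SE 0.05, edgeR adjusted p = 0.0537) and *Pcsk1* (-0.12, SE 0.06, edgeR adjusted p = 0.319). The fit has 1 residual degree of freedom per gene and draws on the other genes for its estimate of the spread. Over all 16 alternatives, *Scg2* and *Scg3* had a negative log2 fold change each time, whereas the sign of the other 8 members turned in at least 1. The size was less steady, from -0.06 without control library 1 to -0.19 without control library 3 for *Scg2*, and from -0.07 without *Thada*-activated library 3 to -0.37 without control library 3 for *Scg3*.

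The balance between the enzymes and their binding proteins was compared as ratios of FPKM. The ratio of *Pcsk1* to *Pcsk2*, the convertases that share proinsulin as a substrate, was 0.239, 0.247 and 0.190 in control and 0.231, 0.216 and 0.187 in *Thada*-activated libraries 1, 2 and 3. It was lower in the *Thada*-activated library of 3 of 3 pairs, with a log2 difference of -0.09, and the conditions overlapped (exact permutation test, two-sided, p = 0.5). Leaving out 1 library moved this difference to between -0.208 (without control library 3) and -0.004 (without *Thada*-activated library 3), and on counts it was -0.061. The ratio of *Pcsk1n* to *Pcsk1* was 2.23, 1.73 and 9.48 in control and 2.65, 2.90 and 7.98 in *Thada*-activated libraries, a log2 difference of 0.25 (exact permutation test, two-sided, p = 0.7) that turned sign without control library 1 (-0.04), control library 2 (-0.222) or *Thada*-activated library 3 (-0.261) and rose to 1.004 without control library 3. The ratio of *Scg5* to *Pcsk2* was 1.23, 1.25 and 3.76 in control and 1.23, 1.12 and 3.40 in *Thada*-activated libraries, a log2 difference of -0.10 (exact permutation test, two-sided, p = 0.6) that turned sign without *Thada*-activated library 1 (0.122) or 2 (0.19) or control library 3 (0.435) and fell to -0.609 without *Thada*-activated library 3. With 3 libraries against 3 the smallest p of this test is 0.1, so this test cannot reach 0.05. Within replicate numbers, the exact sign-flip permutation test gave p = 0.25, 0.75 and 0.5 for the 3 ratios in the order above, where 0.25 is the smallest it can give with 3 pairs. Both ratios of a binding protein to its convertase were higher in the libraries numbered 3, by 4.82-fold in control and 2.88-fold in *Thada*-activated cells for *Pcsk1n* to *Pcsk1*, and by 3.04-fold and 2.89-fold for *Scg5* to *Pcsk2*.

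Replicate 3 was set against the mean log2 CPM of replicates 1 and 2 within each condition, as a description with no test, since it was known to stand apart. The members did not move as a group. Both binding proteins were higher in replicate 3, *Vgf* and *Pcsk1* were lower, and the other 6 members were within 1.5-fold in both conditions. Past 1.5-fold in both conditions were 2 members on the higher side, beside 12.5% of all tested genes, and 2 on the lower side, beside 12%. The 4 members on either side stand beside 24.5% of all genes.

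*Scg5* was higher by 1.09 in control and by 1.24 in *Thada*-activated cells on the log2 scale, which is 2.13-fold and 2.36-fold. *Pcsk1n* was higher by 1.40 and 0.96, or 2.64-fold and 1.95-fold. Replicates 1 and 2 of *Pcsk1n* were themselves 0.36 apart in control cells, the widest such gap among the members. *Vgf* differed by -0.90 and -1.14, and was 1.87-fold and 2.20-fold lower. *Pcsk1* differed by -1.01 and -0.62, and was 2.01-fold and 1.54-fold lower. On log2(FPKM + 1) the values of *Pcsk1* were -0.87 and -0.55, so that 3 members passed 1.5-fold in both conditions. *Scg5* was the only member past 2-fold in both on log2 CPM. The share of all tested genes is given only for 1.5-fold on log2 CPM, so these counts have no share to be compared with. By the mean over the conditions, *Pcsk1n* had rank 493 and *Scg5* rank 517 from the top among 12516 genes, and *Vgf* rank 676 and *Pcsk1* rank 1134 from the bottom.

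Among the remaining members, *Scg3* (-0.53 in control, -0.48 in *Thada*-activated cells), *Pcsk2* (-0.51 and -0.32), *Chga* (-0.27 and -0.29) and *Scg2* (-0.23 and -0.08) were lower in replicate 3 by less. *Cpe* was higher by 0.42 and 0.35, and *Chgb* by 0.04 and 0.33. On log2 CPM the PC1/3 transcript was thus past 1.5-fold lower in both conditions, while the PC2 transcript was lower within 1.5-fold. The transcripts of both binding proteins were past 1.5-fold higher, and that of the carboxypeptidase was not lower. Of the insulin genes, whose products these enzymes process, *Ins1* was higher in replicate 3 by 0.92 and 0.72 and *Ins2* by 0.77 and 0.37. *Ins1* and *Ins2* are close copies, so reads may have been split between them. Fewer cells that express a gene and less of its RNA per cell cannot be told apart in these bulk libraries.

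**Figure D2:**
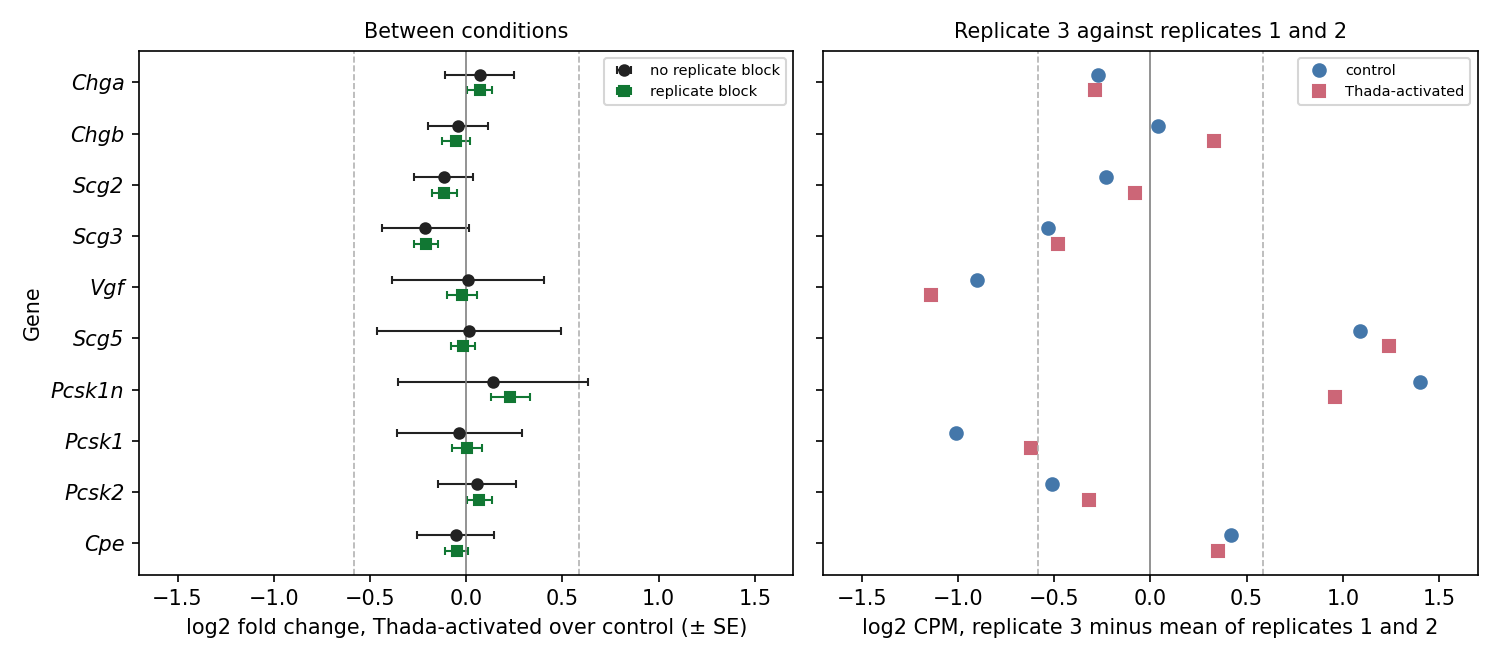
Left, log2 fold change between the conditions, above 0 where *Thada*-activated cells were higher, for each gene with its standard error, without (circles) and with (squares) the replicate block. Right, log2 CPM of replicate 3 minus the mean of replicates 1 and 2 in control (circles) and *Thada*-activated cells (squares). Dashed lines mark 1.5-fold. On the left all estimates lie between -0.21 and 0.23, and on the right *Scg5* and *Pcsk1n* lie past the upper line and *Vgf* and *Pcsk1* past the lower line in both conditions.

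Other genes of prohormone processing and of granules were followed in 4 lists. Beside the counts of each list stand the shares of all tested genes, 0.807% at an unadjusted p under 0.05 without the block, 10.4% with it, and 24.5% past 1.5-fold in replicate 3 of both conditions. Of 16 other processing enzymes, 14 were tested, and the edgeR test called 0 with or without the block, with 0 at an unadjusted p under 0.05 in both fits. Their most abundant gene was *Ctsb*, a lysosomal protease, at 443 FPKM. Past 1.5-fold in replicate 3 of both conditions were *Cpm* on the higher side and *Qpctl* and *Ece1* on the lower side, which are named after their values were seen. *Ece1*, a peptidase that activates endothelin, was at 570, 547 and 144 CPM in control and at 547, 583 and 151 CPM in *Thada*-activated libraries.

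Of 22 prohormones that could serve as substrates, 19 were in the table and 14 were tested. The edgeR test called 0 without the block, with 1 lower gene at an unadjusted p under 0.05, and 1 with the block. With the block *Cartpt*, the precursor of CART peptides, rose (log2 fold change 0.99, SE 0.12, edgeR adjusted p = 0.00401, higher in 3 of 3 pairs), from 10, 8.09 and 19.4 CPM in control to 15.4, 16.6 and 45.3 CPM in *Thada*-activated libraries. Without the block its log2 fold change was 1.04 (SE 0.54, edgeR adjusted p = 1), and the conditions overlapped. *Pdyn*, which encodes prodynorphin, was at 2065, 2331 and 2121 CPM in control and at 1576, 1649 and 1613 CPM in *Thada*-activated libraries with no overlap. Its blocked log2 fold change of -0.43 (SE 0.06, edgeR adjusted p = 0.0113, lower in 3 of 3 pairs) passed the adjusted p and not the fold change. *Nucb2*, the precursor of nesfatin, had one of -0.37 (SE 0.06, edgeR adjusted p = 0.0264, lower in 3 of 3 pairs), and *Ppy*, which encodes pancreatic polypeptide, one of 0.33 (SE 0.09, edgeR adjusted p = 0.213, higher in 3 of 3 pairs). At an unadjusted p under 0.05 in the blocked fit there were 3 higher and 3 lower genes of the 14 tested, beside 10.4% of all tested genes. In replicate 3, *Ins1*, *Cartpt* and *Gal* were past 1.5-fold higher and *Nucb2* and *Sst* past 1.5-fold lower in both conditions.

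Granule assembly, the sorting and tethering machinery at the trans-Golgi network, was represented by 23 genes, all tested, of which the edgeR test called 0 with or without the block. *Rab2a* was the most abundant, at 237 FPKM. *Vps51*, a subunit of tethering complexes, was the 1 gene at an unadjusted p under 0.05 in the blocked fit (log2 fold change 0.25, SE 0.07, edgeR adjusted p = 0.250, higher in 3 of 3 pairs), and 0 reached it without the block. In replicate 3, *Vps53*, *Ap3b1* and *Ap3d1* were past 1.5-fold lower in both conditions and 0 genes were higher. *Ap3d1*, a subunit of the AP-3 adaptor, was at 329, 313 and 58.7 CPM in control and at 310, 327 and 60.7 CPM in *Thada*-activated libraries.

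Of 15 granule membrane proteins, all tested, the edgeR test called 0 in either fit, with 0 at an unadjusted p under 0.05 without the block and 2 with it. *Syt7*, a calcium sensor of exocytosis, was at 236, 241 and 329 CPM in control and at 290, 292 and 408 CPM in *Thada*-activated libraries (blocked log2 fold change 0.29, SE 0.06, edgeR adjusted p = 0.0727, higher in 3 of 3 pairs). *Atp6ap1*, a subunit of the proton pump and the most abundant of the list at 550 FPKM, had a blocked log2 fold change of -0.14 (SE 0.06, edgeR adjusted p = 0.447, lower in 3 of 3 pairs). *Slc30a8*, the zinc transporter of insulin granules, was the 1 gene past 1.5-fold in replicate 3 of both conditions, at 182, 205 and 85.7 CPM in control and 203, 191 and 116 CPM in *Thada*-activated libraries. The median difference of replicate 3 was -0.13 over the other processing enzymes, 0.07 over the prohormones, -0.19 over granule assembly and 0.00 over the membrane proteins, beside 0.001 over all tested genes.

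Some markers of cell types also differed in replicate 3, and the marker lists were compared between the conditions as well. Of 11 tested β-cell markers, *Ins1* was past 1.5-fold higher and *Pdx1*, *Nkx2-2*, *Ucn3* and *Slc30a8* were past 1.5-fold lower in both conditions. The median difference of replicate 3 over these 11 markers was -0.58. Of 11 markers of other islet cells, 10 were in the table and 6 were tested. Their sum was 1501, 1355 and 771 CPM in control and 1454, 1435 and 909 CPM in *Thada*-activated libraries, most of it *Ttr* (1009 FPKM), with *Ttr* and *Sst* lower in replicate 3. Of 16 exocrine and duct markers, 9 were in the table and 4 were tested, with a sum of 153, 154 and 75.1 CPM in control and 187, 188 and 100 CPM in *Thada*-activated libraries, nearly all of it *Krt7* (97.3 FPKM). The acinar genes *Cel*, *Ctrb1* and *Amy2a5* were at 0 in 5 of 6 libraries, and *Cela2a* in 3 of 6. Of 12 stromal, endothelial and immune markers, 9 were in the table and 3 were tested, with a sum of 4.33, 3.72 and 5.85 CPM in control and 4.50, 5.0 and 7.39 CPM in *Thada*-activated libraries, with *Cd68* the most abundant at 0.747 FPKM. *Cdh5*, *Kdr*, *Adgre1* and *Cd3e* were at 0 in 5 of 6 libraries. Between the conditions, the edgeR test called 0 genes of the 4 marker lists with or without the block. At an unadjusted p under 0.05 it had 1 of the 4 tested exocrine and duct markers without the block and 0 in the other lists. With the block it had 2 of 11 β-cell markers, 1 of 6 markers of other islet cells, 2 of 4 exocrine and duct markers and 1 of 3 stromal, endothelial and immune markers, all higher in *Thada*-activated cells, beside 10.4% of all tested genes. Among these genes, blocked log2 fold changes from edgeR were 0.52 for *Ucn3* (SE 0.09, edgeR adjusted p = 0.0337), 1.78 for *Krt19* (SE 0.32, edgeR adjusted p = 0.0548), 0.32 for *Krt7* (SE 0.06, edgeR adjusted p = 0.0651) and 0.67 for *Col1a2* (SE 0.28, edgeR adjusted p = 0.431), with *Ppy* given above. The median log2 fold changes without the block were 0.11, 0.06, 0.37 and 0.41 in the same order, beside -0.004 over all tested genes. The part of these markers in the differences of the members was not tested.

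For 4 members, the genes with the most similar pattern over the 6 libraries were found by the root mean square difference of centred log2 CPM among 9736 genes with a mean of at least 10 CPM. They were *Cfl1* (0.0207), *Atp7a* (0.0212) and *Fam117a* (0.0229) for *Chga*. For *Pcsk1* they were *Herc2* (0.0264), *Ppil2* (0.0338) and *Ubn2* (0.0344). For *Pcsk2* they were *1110051M20Rik* (0.0153), *Chd4* (0.0212) and *A430033K04Rik* (0.0230), and for *Cpe* *Mon1b* (0.0088), *Polr2m* (0.0173) and *Lima1* (0.0195). The likeness includes the difference of replicate 3, which was -0.82 in both *Herc2* and *Pcsk1* and 0.39 in both *Mon1b* and *Cpe*. Such genes are not given for the other members.

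Promoters were searched for the cAMP response element, a sequence through which cAMP and calcium signals act on many neuroendocrine genes. RefSeq windows on GRCm38.p6, of 250 bases before and 50 bases after the start of transcription, were matched by symbol for 8 of the 10 members (not *Vgf* and *Cpe*). The motifs were TGACGTCA and its 5-letter part TGACG, on both strands, so that each match of the former also holds the latter. TGACGTCA, which 1.79% of 32851 windows hold, was found in *Chgb*, *Scg2* and *Pcsk1*. TGACG, which 20.8% of windows hold, was found in 7 of the 8 windows, and *Pcsk1n* was the exception. These matches are descriptions of the letters in the windows and no binding was measured. The stretches with TGACGTCA are given 5′ to 3′ on the strand of the gene, with 15 bases on either side and the motif in capitals, because the 3 genes share it at a like distance, 72, 68 and 78 bases before the start that RefSeq gives. These starts differ from the GENCODE starts given with the genes above, by which the motif lies inside *Chgb* and *Scg2* and before *Pcsk1*, so the like distance holds for the RefSeq starts only.
*Chgb*, chr2:132781555-132781592, plus strand: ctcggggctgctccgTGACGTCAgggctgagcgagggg
*Scg2*, chr1:79440072-79440109, minus strand: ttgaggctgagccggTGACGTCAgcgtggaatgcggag
*Pcsk1*, chr13:75089764-75089801, plus strand: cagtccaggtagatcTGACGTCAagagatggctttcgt

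*Chga* has only the shorter motif, 44 bases before its start, and its stretch is given for comparison with those of the other granins.
*Chga*, chr12:102554882-102554916, plus strand: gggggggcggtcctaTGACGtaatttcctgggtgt

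The whole windows of *Scg5*, *Pcsk1n* and *Pcsk1* are given because these genes differed most in replicate 3 among the members with a window, the first pair upward and *Pcsk1* downward. Capitals mark TGACG, its reverse complement CGTCA, or TGACGTCA. The window of *Scg5* holds 3 matches of TGACG, of which 1 lies 175 bases before the start and the others lie after it, and 54.0% of its bases are G or C.
*Scg5*, chr2:113829042-113829341, minus strand: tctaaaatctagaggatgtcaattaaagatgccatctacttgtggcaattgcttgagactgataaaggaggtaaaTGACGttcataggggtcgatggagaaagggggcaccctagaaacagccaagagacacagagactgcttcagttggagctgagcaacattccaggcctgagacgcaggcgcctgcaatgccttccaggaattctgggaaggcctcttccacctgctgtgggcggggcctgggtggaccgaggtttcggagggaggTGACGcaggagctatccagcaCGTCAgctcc

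The window of *Pcsk1n* holds 0 matches of either motif, and 58.7% of its bases are G or C.
*Pcsk1n*, chrX:7919572-7919871, plus strand: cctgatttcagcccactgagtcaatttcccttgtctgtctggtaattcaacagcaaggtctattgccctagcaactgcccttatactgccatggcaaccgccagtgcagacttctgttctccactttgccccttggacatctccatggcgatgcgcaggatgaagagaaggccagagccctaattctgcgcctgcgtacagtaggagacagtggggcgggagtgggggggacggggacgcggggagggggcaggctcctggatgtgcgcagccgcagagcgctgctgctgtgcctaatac

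The window of *Pcsk1* holds TGACGTCA and a second copy of TGACG that starts 50 bases before the start of transcription, and 49.3% of its bases are G or C.
*Pcsk1*, chr13:75089607-75089906, plus strand: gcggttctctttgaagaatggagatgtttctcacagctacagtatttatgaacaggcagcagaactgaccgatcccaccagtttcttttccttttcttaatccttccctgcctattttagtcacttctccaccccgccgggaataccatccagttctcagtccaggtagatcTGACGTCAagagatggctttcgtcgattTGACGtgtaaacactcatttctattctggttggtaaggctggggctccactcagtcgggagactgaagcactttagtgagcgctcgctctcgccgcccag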

How the data were processed

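RNA of 6 libraries was sequenced on BGISEQ-500. The authors deposited an estimated count per gene and library, not normalized, for 16640 genes. In each library 91.1% to 91.9% of these values were exactly whole, counts of 0 included. They also deposited FPKM and TPM values, which the authors scaled by gene length and library size, and TPM was not used here. The submitters' processing notes name GRCm38, Bowtie2, RSEM and DESeq2, while versions and roles are not given in the sources used here. The authors' table also holds their own log2 fold changes, p-values and q-values, which were not used. It had 1 broken line, which held only the end of a text cell and was left out.

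Conditions and replicate numbers came from the labels. Counts were rounded and analysed in R 4.3.3 with edgeR 4.0.16 (filterByExpr, TMM, robust quasi-likelihood test, condition as the only term) over all genes. Calls needed a fold change over 1.5 and p under 0.05 after Benjamini-Hochberg adjustment. Standard errors were the log2 fold change over the square root of F. Log2 CPM for replicate 3 used a prior count of 2. Ratios were compared by an exact permutation test over libraries, and within numbers by exact sign flips.

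The numbers were taken to pair the libraries because, after the condition means were removed, libraries of the same number correlated across genes by 0.667, 0.671 and 0.869. Crossing numbers 1 and 2 gave 0.705 and 0.726, so that the pairing of 1 with 1 and 2 with 2 is no closer than the crossed one, and crossing either with 3 gave -0.784 to -0.766. No libraries of a condition held identical counts. The chi-square of their counts per degree of freedom was 4.41 between control libraries 1 and 2 and 1.83 between *Thada*-activated libraries 1 and 2. Against the libraries numbered 3 it was 94.08 to 132.7. Whether libraries 1 and 2 were technical repeats was not tested.

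The alternatives were the replicate block, with and without both libraries numbered 3, DESeq2 1.42.0 (size factors, Wald test with and without the block), limma-trend (3.58.1) on log2 FPKM with 1 or 0.1 added, no filter, at least 10 counts in each library, library sizes without the 20 top genes, adjusted p alone, and each library left out in turn. Ratios were also taken on counts, and replicate 3 on other scalings and at 2-fold. Adjusted p alone without both libraries numbered 3 was added after seeing the data.

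The genes named were all members and *Thada*, the most abundant gene of each list, up to 4 genes of a list with the smallest p in the blocked fit, and those past the adjusted p there. Genes of lists past 1.5-fold in replicate 3 were named after their values were seen. The lists were other processing enzymes, prohormones, granule assembly and granule membrane proteins, and markers of β-cells, other islet cells, exocrine and duct cells, and stromal, endothelial and immune cells. The members and lists were chosen with earlier results of these data known. Coordinates of genes came from GENCODE M21, and promoters, with the starts that distances are counted from, from RefSeq on GRCm38.p6.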

Additional observations from a re-analysis of the deposited data

How the results depend on the processing

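The 10 members gave 0 calls under every alternative except the adjusted p alone in the blocked fit without both libraries numbered 3, chosen after seeing the data, which gave 2 members and 366 genes. The number of genes called, 0 in the edgeR fit without a block, was 19 with the replicate block, 70 with the replicate block and without both libraries numbered 3, 28 with the replicate block and adjusted p alone, 5 with the DESeq2 Wald test and 20 with that test and the replicate block. It was 0 under each other alternative, among them each library left out in turn. The replicate block changed the call of no member.

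The log2 fold changes of 8 members turned sign under at least 1 alternative. With the replicate block they were -0.02 for *Vgf*, -0.01 for *Scg5* and 0.00 for *Pcsk1*, and with DESeq2 and the replicate block -0.02, -0.02 and 0.00. Under limma on both FPKM scales *Vgf* and *Scg5* were at -0.01, and in the blocked fit without both libraries numbered 3 *Scg5* was at -0.06. Leaving out 1 library at a time gave -0.02 to 0.16 for *Chga*, -0.16 to 0.02 for *Chgb*, -0.23 to 0.30 for *Vgf*, -0.53 to 0.48 for *Scg5*, -0.26 to 0.76 for *Pcsk1n*, -0.30 to 0.14 for *Pcsk1*, -0.09 to 0.15 for *Pcsk2* and -0.18 to 0.10 for *Cpe*. *Scg2*, from -0.19 to -0.06, and *Scg3*, from -0.37 to -0.07, kept their sign. For the ratios it gave -0.26 to 1.00 on the log2 scale for *Pcsk1n* to *Pcsk1* and -0.61 to 0.44 for *Scg5* to *Pcsk2*, and -0.208 to -0.004 for *Pcsk1* to *Pcsk2*, which was -0.061 on counts. Leaving out any 1 library gives the libraries numbered 3, which stand apart, unequal weight in the conditions. The cause of the turns was not tested.

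At 2-fold, 1 member in place of 4 was past the threshold in replicate 3, and on log2(FPKM + 1) there were 3 past 1.5-fold, without *Pcsk1*. The share of all tested genes is given only for 1.5-fold on log2 CPM, so these counts stand without a share to compare them with. With the libraries numbered 3 standing apart, the standard errors of the members without the block were 0.15 to 0.50. Even *Thada*, with a log2 fold change of 1.13 (SE 0.22), was not called in that edgeR fit. Differences of members well above their standard errors could therefore also go uncalled without the block.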
